A study of Mus musculus with 11 samples.

Results

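The hepatic insulin signal and its FOXO branch were followed through 10 genes in liver RNA-seq of ovariectomized (OVX) female mice. The members were chosen by symbol: the insulin receptor gene *Insr*, the adapters *Irs1* and *Irs2*, the phosphoinositide 3-kinase subunit gene *Pik3r1*, the kinase gene *Akt2*, the transcription factor genes *Foxo1* and *Foxo3*, and *Igfbp1*, *Ccng2* and *Sesn3*, which FOXO factors are known to induce. All 10 symbols were found among the 36788 gene identifiers of the table. The livers came from 5 mice treated with daily injections of follicle-stimulating hormone (FSH) and 6 mice treated with saline. Every mouse in both groups was a female over 12 weeks old with the genotype label WT C57BL/6, was ovariectomized and ate a high-fat diet. The methods describe the study's mice as being on a mixed 129 and C57BL/6J background. There was no group with ovaries and no group on a normal diet, so the values describe FSH against saline in that setting only. Mice are called here by their label numbers, which are 1, 2, 3, 4 and 6 for FSH and 1 to 6 for saline.

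Insulin binds its receptor on hepatocytes, the receptor phosphorylates the IRS adapters, and these recruit phosphoinositide 3-kinase, which leads to activation of AKT. AKT phosphorylates FOXO factors, which then leave the nucleus, so genes that FOXO factors induce are read less when insulin is high. In the liver the best known of these are *Igfbp1* and genes of glucose production, and *Irs2* is itself one of them, while insulin raises genes of fat synthesis through other factors. Phosphorylation and cell location are not seen by RNA-seq, which measures transcript levels only.

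Gene-assigned reads numbered 11410596 to 19909327 per FSH liver and 10801891 to 16077442 per saline liver. Values are in CPM, the reads of a gene scaled to a library total of 1000000. Hepatocyte markers had the highest sum of the marker lists in every library. Their summed level was 100954 to 118897 CPM with FSH and 97163 to 123318 CPM with saline. All 9 of these markers were tested, and 1 of them, *Hnf4a*, was lower with FSH. Of 5 adipocyte markers 0 reached the level needed for a test, their sum was at most 0.525 CPM in any liver, and *Lep* and *Retn* were at 0 in all. The pancreatic list summed to at most 16.3 CPM, with 6 of its 11 genes at 0 in all livers, among them *Ins1*, *Ins2* and *Gcg*. None of the tested erythroid (5), Kupffer cell (7), stellate cell (7) or lymphocyte and neutrophil (4) markers differed by limma's adjusted p. The 7 Kupffer cell markers all had negative log2 fold changes (median -0.42), and their sum was 108 to 298 CPM with FSH and 177 to 351 CPM with saline. The 7 stellate cell markers were also all negative (median -0.18). In the endothelial list 1 of 6 genes (*Lyve1*) was lower, and 5 of the 6 had negative log2 fold changes (median -0.22). In the cholangiocyte list 1 of 5 (*Krt7*) was higher, and 4 of the 5 had positive ones (median 0.28). Over all tested genes 10.6% differed by the same test. In whole liver, fewer cells of a type and less RNA per cell cannot be told apart, and this holds for every level below.

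Of the members, 3 were lower in FSH livers: *Igfbp1*, *Irs2* and *Ccng2*. The fitted differences, on the log2(CPM + 0.5) scale, correspond to levels 2.83-fold, 2.74-fold and 2.65-fold lower. None of the 10 members was higher by the same test, and the receptor, kinase and transcription factor genes did not pass it in either direction. Levels were compared on log2(CPM + 0.5) with limma across the 12733 genes that averaged 0.5 CPM or more over the livers, and p-values were adjusted over all of them by the Benjamini-Hochberg method. A gene is called where its adjusted p is under 0.05. All 10 members could be tested, 3 were called, and all 3 were lower, where 10.6% of all tested genes were called, 4.41% lower and 6.19% higher. The same 3 also passed the stricter rule that adds an absolute log2 fold change over 1, which 1.83% of all tested genes passed (0.942% lower and 0.887% higher). The median log2 fold change of the 10 members was -0.30, and that of all tested genes was 0.02. The members were chosen with earlier results of these data known, so their counts and median are not independent evidence. At an unadjusted p under 0.05, 4 of the 10 members passed, where 25.1% of all genes did. These p-values set the group difference against the spread between the sequenced mice. In limma each gene's variance is moderated towards that of genes of similar level.

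**Figure D1:**
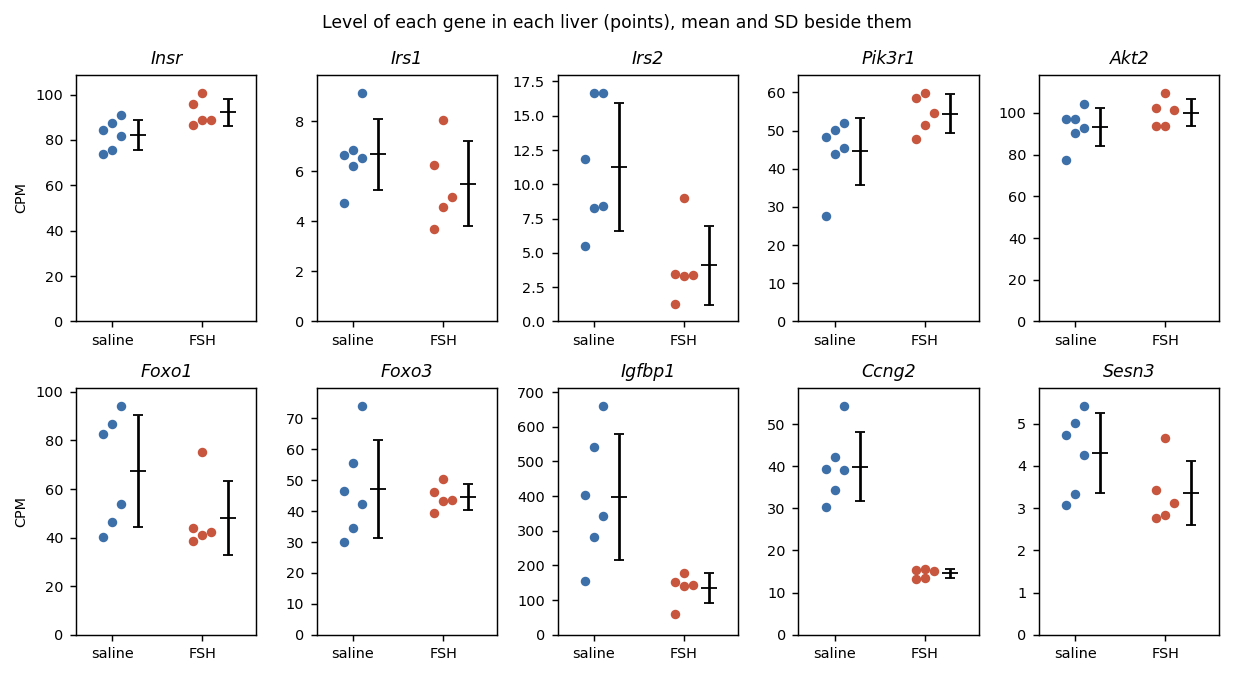
Level of each of the 10 genes in CPM (vertical axes, each starting at 0) in the 6 saline and 5 FSH livers, with 1 point per liver and the mean and SD beside the points. The FSH points of Ccng2 lie together at 13.3 to 15.6 CPM, below every saline liver, while for Irs2 and Igfbp1 the highest FSH liver lies above the lowest saline liver.

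The relay begins at the receptor. *Insr* (ENSMUSG00000005534, chromosome 8 from 3122061 to 3279617 in GRCm38) had 88.8, 100.8, 88.7, 95.9 and 86.4 CPM in the FSH livers of mice 1, 2, 3, 4 and 6. In saline livers its lowest, median and highest levels were 73.8, 83.1 and 91.0 CPM. The groups overlapped, with 2 FSH livers above all saline livers and 4 saline livers below all FSH livers. The log2 fold change was 0.16 (standard error 0.08, 95% interval -0.01 to 0.34, limma adjusted p = 0.222). An exact two-sided permutation test of this gene alone gave p = 0.0433, which is not adjusted for the 10 genes examined.

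*Irs1* and *Irs2* encode the 2 adapters that carry the receptor's signal in hepatocytes. *Irs2* (ENSMUSG00000038894, chromosome 8 from 10984681 to 11008458) had 3.32, 8.998, 1.30, 3.49 and 3.42 CPM in the FSH livers of mice 1, 2, 3, 4 and 6, and its lowest, median and highest saline levels were 5.48, 10.1 and 16.7 CPM. Below every saline liver lay 4 FSH livers, and FSH-treated mouse 2 lay within the saline range. *Irs2* averaged 4.10 ± 2.88 CPM over the 5 FSH livers and 11.2 ± 4.67 CPM over the 6 saline livers (mean ± SD). The log2 fold change was -1.45 (standard error 0.35, 95% interval -2.21 to -0.70, limma adjusted p = 0.0168), and the exact permutation test gave p = 0.0173. Counting error was small beside this spread: the 23 reads in FSH-treated mouse 3, the fewest of any liver, allow 0.826 to 1.95 CPM (95% Poisson interval). The predicted transcript 9530052E02Rik overlaps *Irs2* on the opposite strand and averaged 0.0525 CPM.

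*Irs1* (ENSMUSG00000055980, chromosome 1 from 82233101 to 82291416) had 4.57, 8.04, 3.68, 6.27 and 4.995 CPM with FSH, and 4.73, 6.60 and 9.14 CPM as the lowest, median and highest level with saline. The groups overlapped, with 2 FSH livers below all saline livers and 1 saline liver above all FSH livers. Its log2 fold change was -0.28 (standard error 0.18, 95% interval -0.67 to 0.11, limma adjusted p = 0.379), and it was -0.16 without FSH-treated mouse 3 and -0.42 without FSH-treated mouse 2. The predicted gene *Gm9747*, named here after its values were seen, lies on the opposite strand within the 3′ end of *Irs1* (82233112 to 82235933) and averaged 16.8 CPM, more than *Irs1* itself. How strand was used in counting is not given in the sources used here, so reads of the pair cannot be told apart. The level of *Gm9747* was 18.6 ± 4.99 CPM over the 5 FSH livers and 15.2 ± 1.98 CPM over the 6 saline livers (mean ± SD) (log2 fold change 0.25, limma adjusted p = 0.385). With both summed, the log2 difference turned to 0.11 (exact permutation p = 0.459), so no direction is given for *Irs1*.

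Compared within each liver, the 2 adapters did not move alike. The log2 ratio of *Irs2* to *Irs1* was 0.63 ± 0.39 (SD, n = 6) with saline and -0.54 ± 0.50 (SD, n = 5) with FSH. All 6 saline livers had a ratio of at least 0.19 and all 5 FSH livers one of at most 0.15, so the groups did not overlap, though the margin was narrow. The difference was -1.17 (exact permutation p = 0.00433, the smallest that 462 splits of 11 livers can give, and 0.013 adjusted over the 3 ratios tested). The difference was -1.27 with 0.1 CPM added to each level and -1.07 with 1 CPM added, in place of 0.5 CPM. A ratio within a liver shows unequal change only. With *Gm9747* added to *Irs1* the difference was -1.57 and the groups overlapped (exact permutation p = 0.013, and 0.039 adjusted over the 3 ratios).

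**Figure D2:**
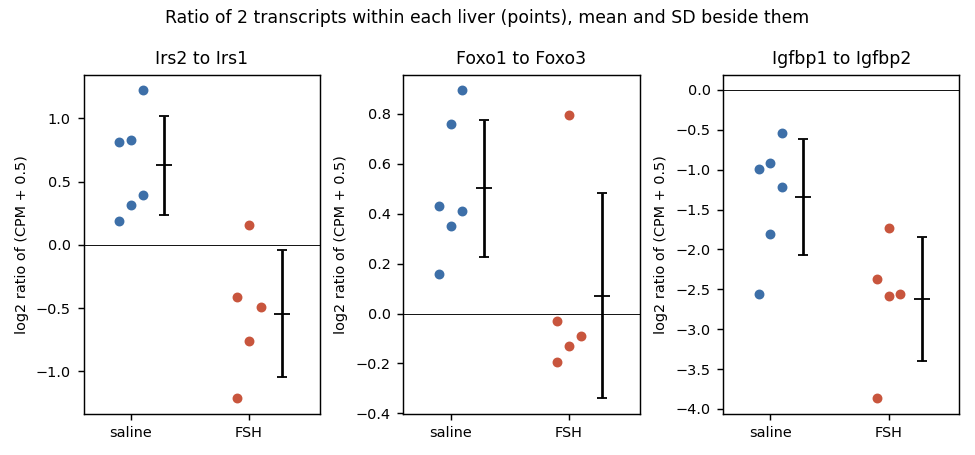
Log2 ratio of 2 related genes within each liver (vertical axis, from log2(CPM + 0.5)), with 1 point per liver for 6 saline and 5 FSH livers. The Irs2 to Irs1 ratios of the groups are separate, whereas 1 FSH liver (mouse 6, 0.80) lies among the saline livers for Foxo1 to Foxo3, and the groups overlap for Igfbp1 to Igfbp2.

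*Pik3r1* and *Akt2* encode the middle of the relay. *Pik3r1* (ENSMUSG00000041417, chromosome 13 from 101680563 to 101768217), the gene of the regulatory p85 subunit, had 51.3, 58.6, 54.5, 59.9 and 47.7 CPM with FSH, and 27.7, 46.9 and 52.0 CPM as the lowest, median and highest level with saline. Of the FSH livers, 3 lay above all saline livers and 3 saline livers lay below all FSH livers, with saline-treated mouse 5 far below the rest. Its log2 fold change was 0.31 (standard error 0.14, 95% interval 0.01 to 0.61), with an unadjusted limma p of 0.0436, an adjusted p of 0.183 and an exact permutation p of 0.0346. Without saline-treated mouse 5 it was 0.18. *Akt2* (ENSMUSG00000004056, chromosome 7 from 27591552 to 27640826), the gene of the main hepatic AKT kinase, had 101.6, 109.6, 93.7, 93.7 and 102.1 CPM with FSH against 77.6, 94.8 and 104.3 CPM as the lowest, median and highest with saline. The ranges overlapped, with 1 FSH liver above all saline livers and 3 saline livers below all FSH livers. The log2 fold change of *Akt2* was 0.11 (standard error 0.09, 95% interval -0.08 to 0.29, limma adjusted p = 0.486), and 0.06 without saline-treated mouse 5.

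*Foxo1* (ENSMUSG00000044167, chromosome 3 from 52268336 to 52353221) encodes the FOXO factor best known for insulin-regulated transcription in the liver. Its levels with FSH were 41.0, 44.0, 38.6, 42.1 and 75.3 CPM, and with saline the lowest, median and highest were 40.2, 68.3 and 94.1 CPM. In 4 FSH livers the levels were close together near the lowest saline liver, 1 of them below it, and FSH-treated mouse 6 lay far above them. Saline livers fell on either side of a wide gap, with 3 above every FSH liver. The log2 fold change was -0.45 (standard error 0.23, 95% interval -0.94 to 0.04, limma adjusted p = 0.239). Without FSH-treated mouse 6 it was -0.62 (adjusted p = 0.0768 by limma), still not called. *Foxo3* (ENSMUSG00000048756, chromosome 10 from 42181841 to 42276755), a related factor, had 43.6, 50.4, 39.4, 46.2 and 43.1 CPM with FSH and 30.1, 44.3 and 74.0 CPM as the lowest, median and highest with saline. All FSH livers lay inside the saline range, and the log2 fold change was -0.02 (standard error 0.18, 95% interval -0.41 to 0.37, limma adjusted p = 0.963). The log2 ratio of *Foxo1* to *Foxo3* was 0.07 ± 0.41 (SD, n = 5) with FSH and 0.50 ± 0.27 (SD, n = 6) with saline, a difference of -0.43 (exact permutation p = 0.0823, also after adjustment over the 3 ratios). Without FSH-treated mouse 6 the difference was -0.61 with an adjusted permutation p of 0.0143, so this call depends on that liver.

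**Figure D3:**
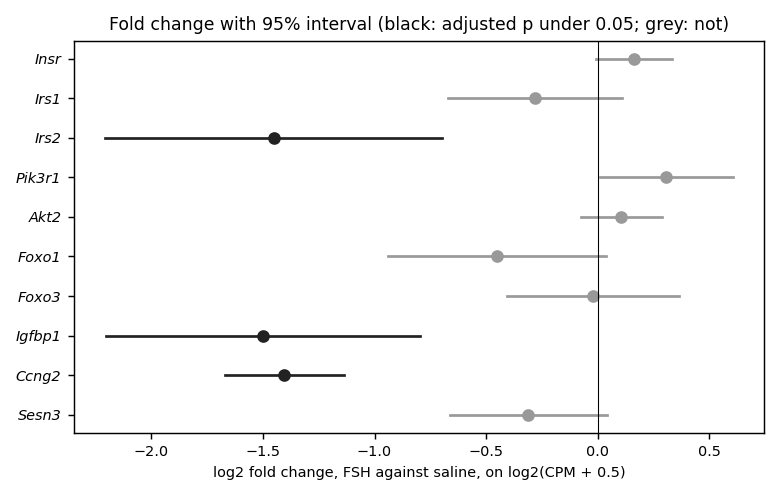
Log2 fold change of FSH against saline for the 10 genes in the order of the relay (horizontal axis, on log2(CPM + 0.5)), with 95% intervals from limma. Black points mark genes with an adjusted p under 0.05, which are Irs2, Igfbp1 and Ccng2, at -1.45, -1.50 and -1.40, while the intervals of Insr, Irs1, Akt2, Foxo1, Foxo3 and Sesn3 include 0.

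The 3 genes at the end of the branch differed in how the livers were spread. *Ccng2* (ENSMUSG00000029385, chromosome 5 from 93267257 to 93276231) encodes cyclin G2, an unusual cyclin linked to cell cycle arrest rather than to division. FSH livers had 13.4, 15.3, 15.2, 13.3 and 15.6 CPM, and the lowest, median and highest saline levels were 30.3, 39.2 and 54.3 CPM. The lowest saline liver was thus well above the highest FSH liver, and *Ccng2* was the 1 member of 10 whose groups did not overlap, as did not those of 6.67% of all tested genes (2.72% with FSH lower). The FSH livers were also tightly grouped, with a coefficient of variation of 7.65% against 20.5% with saline. *Ccng2* averaged 14.6 ± 1.11 CPM over the 5 FSH livers and 39.9 ± 8.19 CPM over the 6 saline livers (mean ± SD). Its log2 fold change was -1.40 (standard error 0.13, 95% interval -1.67 to -1.13, limma adjusted p = 1.38e-05), and the exact permutation p was 0.00433, the smallest this design allows.

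*Igfbp1* (ENSMUSG00000020429, chromosome 11 from 7197782 to 7202546) encodes a secreted protein that binds insulin-like growth factors and is made mainly in the liver. In FSH livers its levels were 60.5, 153.6, 177.2, 139.9 and 143.5 CPM, and in saline livers the lowest, median and highest were 156.3, 372.9 and 659.7 CPM. Of the FSH livers, 4 lay below all saline livers, and 5 of 6 saline livers lay above all FSH livers. The groups overlapped through FSH-treated mouse 3 and saline-treated mouse 6. Saline-treated mouse 6, the lowest saline liver for *Igfbp1*, shared the highest *Irs2* level (16.7 CPM) with saline-treated mouse 2, so the called genes did not order the saline livers alike. *Igfbp1* averaged 134.9 ± 44.1 CPM over the 5 FSH livers and 397.7 ± 181.4 CPM over the 6 saline livers (mean ± SD). The log2 fold change was -1.50 (standard error 0.33, 95% interval -2.20 to -0.80, limma adjusted p = 0.0093), and the exact permutation p was 0.00866.

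*Sesn3* (ENSMUSG00000032009, chromosome 9 from 14275067 to 14333101) encodes a sestrin, a stress-responsive protein that acts on AKT and mTOR complexes. It had 3.11, 4.65, 2.78, 2.84 and 3.42 CPM with FSH, and 3.07, 4.49 and 5.41 CPM as the lowest, median and highest with saline. Below all saline livers lay 2 FSH livers, and 3 saline livers lay above all FSH livers. Its log2 fold change was -0.31 (standard error 0.17, 95% interval -0.66 to 0.04, limma adjusted p = 0.261). The gene was read 37 to 87 times per liver, few reads like *Irs2* and *Irs1*.

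Short sequences before the start sites are shown for the 3 called genes, since all 3 are known FOXO targets, and for *Irs1* as the adapter that was not called. They were taken from RefSeq on GRCm38.p6, which gave a window for 9 of the 10 members (*Insr* had none), and are written 5′ to 3′ on the strand of the gene. Capitals mark matches, on either strand, to CAAAACA or CAAAATA, the core letters of insulin response sequences, with TGTTTTG and TATTTTG as their reverse complements. *Igfbp1* is chr11:7197637-7197781 on the plus strand, *Irs2* is chr8:11008930-11009079 on the minus strand, *Ccng2* is chr5:93267543-93267572 on the plus strand, and *Irs1* is chr1:82291440-82291589 on the minus strand. The start sites are those of RefSeq. The *Ccng2* stretch, shown shorter than the others, lies after the GENCODE start of the gene (93267257). The RefSeq start of *Irs2* lies upstream of its GENCODE start.
Igfbp1: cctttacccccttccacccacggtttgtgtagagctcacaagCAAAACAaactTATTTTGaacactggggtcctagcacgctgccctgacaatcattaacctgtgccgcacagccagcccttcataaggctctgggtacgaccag
Irs2: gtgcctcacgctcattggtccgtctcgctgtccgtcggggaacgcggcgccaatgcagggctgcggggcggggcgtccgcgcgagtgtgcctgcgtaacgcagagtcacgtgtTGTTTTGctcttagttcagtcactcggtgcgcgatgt
Ccng2: gggcgtcgcagactCAAAACAaaaacaagg
Irs1: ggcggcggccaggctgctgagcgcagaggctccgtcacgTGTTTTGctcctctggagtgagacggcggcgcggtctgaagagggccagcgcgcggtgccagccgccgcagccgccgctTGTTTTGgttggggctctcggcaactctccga

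*Igfbp1* carried both motifs close together, CAAAACA on the gene's strand and CAAAATA on the other, at 108 to 102 and 97 to 91 bases before the start. *Irs2* and *Ccng2* carried 1 match each, and *Irs1* carried 2. Over the 250 bases before each start, CAAAACA was found in 5.56% and CAAAATA in 3.95% of 32851 windows, and GTAAACA, the letters most often bound by FOXO factors in vitro, in 3.17%. Any of them was found in 11.9% of all windows and in 5 of the 13 windows that the 9 members had between them, the fifth being the second window of *Pik3r1*. *Irs1* and *Pik3r1*, which were not called, thus held matches like the called genes, and several members were chosen because FOXO factors are known to induce them. A match is a description of letters and not of a bound site.

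Levels can be compared between genes only per length, here as CPM per kilobase of the exons in GENCODE M21. By far the highest of the 10 was *Igfbp1*, with 260.8 ± 119.0 with saline and 88.5 ± 28.9 with FSH. *Akt2* followed with 13.1 and 14.0, and its range lay apart from that of the next gene in both groups. With saline came *Foxo1* (7.77), *Ccng2* (7.31), *Foxo3* (6.22) and *Insr* (5.99), whose neighbouring ranges overlapped, then *Pik3r1* (4.42), *Irs2* (1.78), *Irs1* (0.731) and *Sesn3* (0.282). With FSH the order after *Akt2* was *Insr* (6.70), *Foxo3* (5.88), *Foxo1* (5.56) and *Pik3r1* (5.40), again with overlapping neighbours, and then *Ccng2* (2.67), *Irs2* (0.649), *Irs1* (0.603) and *Sesn3* (0.220). *Ccng2* moved from rank 4 with saline to rank 7 with FSH, where it lay below *Pik3r1* in all 5 livers. *Irs2* was above *Irs1* per length in 6 of 6 saline livers and in 2 of 5 FSH livers, but above the sum of *Irs1* and *Gm9747* in only 1 saline liver and 0 FSH livers, so the order of the 2 adapters rests on how those reads were assigned.

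Of 32 genes of the insulin signal relay (receptors, adapters, phosphoinositide 3-kinase and AKT subunits, mTOR complexes and FOXO factors), 29 were tested, and 2 were lower and 0 higher, where 10.6% of all genes were called. Their median log2 fold change was -0.02, and 0.02 over all tested genes. Besides *Irs2* the called gene was *Grb2*, an adapter that links receptors to the RAS pathway. *Grb2* had 46.3 ± 2.79 CPM over the 5 FSH livers and 58.9 ± 0.844 CPM over the 6 saline livers (mean ± SD), with no overlap (log2 fold change -0.34, standard error 0.07, limma adjusted p = 0.00562). With the members left out, 1 of 22 relay genes was called. *Pik3cb*, a catalytic subunit gene of phosphoinositide 3-kinase, lay at the threshold (log2 fold change 0.47, adjusted p = 0.0512 by limma) and was called higher in 8 of the 22 alternatives. *Igf1r*, *Irs4* and *Foxo6* were below the level for a test, and *Irs4* was at 0 in every liver.

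Of 18 genes that restrain the signal or clear insulin (phosphatases, inhibitory adapters, *Ceacam1* and *Ide*), 17 were tested, 1 was lower and 0 were higher, with a median of 0.01, where 10.6% of all tested genes were called and 4.41% were lower. The called gene was *Trib3*, a pseudokinase known to bind AKT and to rise under nutrient and endoplasmic reticulum stress. It had 2.69 ± 0.299 CPM over the 5 FSH livers and 7.16 ± 3.01 CPM over the 6 saline livers (mean ± SD), without overlap (log2 fold change -1.19, standard error 0.21, limma adjusted p = 0.00243). Of 12 genes of the insulin-like growth factor axis, 10 were tested and *Igfbp1* alone was called, a share like that of all genes. The levels of *Igf1* (log2 fold change 0.06) and *Igfbp2* (-0.22) did not pass the test. The log2 ratio of *Igfbp1* to *Igfbp2*, another binding protein of the liver, was -2.62 ± 0.78 (SD, n = 5) with FSH and -1.34 ± 0.73 (SD, n = 6) with saline. That difference of -1.28 had an exact permutation p of 0.0346 and of 0.0519 after adjustment over the 3 ratios. It passed without FSH-treated mouse 3 (-1.50, adjusted permutation p = 0.0429), without saline-treated mouse 5 (-1.37, 0.0476) or without saline-treated mouse 6 (-1.52, 0.0238).

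Among 30 genes known as FOXO targets, 29 were tested, and 5 were lower and 1 was higher with FSH, where 4.41% of all tested genes were lower and 6.19% higher. Their median log2 fold change was -0.13. The lower genes were *Igfbp1*, *Irs2*, *Ccng2*, *Cdkn1a* and *Cited2*. The drop of *Cdkn1a*, which encodes the cell cycle inhibitor p21, was the largest of the list, from 108.9 ± 59.5 CPM (SD, n = 6) with saline to 5.73 ± 3.42 CPM (SD, n = 5) with FSH (log2 fold change -4.09). *Cited2* (log2 fold change -0.39, limma adjusted p = 0.0282), a transcriptional coregulator, was named after its values were seen, and lost its call when FSH liver 1, 3 or 4 was left out, or saline liver 1 or 3 (adjusted p = 0.0503 to 0.0756 by limma). The gene that rose was *Bnip3*, a mitochondrial protein linked to mitophagy, which averaged 403.8 ± 51.2 CPM over the 5 FSH livers and 246.2 ± 33.1 CPM over the 6 saline livers (mean ± SD) without overlap (log2 fold change 0.71, standard error 0.11, limma adjusted p = 0.000944). With the members left out, 2 of 24 tested FOXO targets were lower and 1 was higher (12.5% called, near the 10.6% of all tested genes), with a median of -0.09. The genes of glucose production did not pass the test: *Pck1*, the gene of phosphoenolpyruvate carboxykinase, differed by -0.87 on the log2 scale (limma adjusted p = 0.123) and *G6pc*, the gene of glucose-6-phosphatase, by -0.14 (limma adjusted p = 0.755).

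Of 6 sestrins and cyclins G and I, *Ccng2* was the 1 called gene, where 10.6% of all tested genes were called, and the 6 log2 fold changes had a median of -0.23. *Sesn1* had -0.13, *Sesn2* -0.30, *Ccng1* -0.06 and *Ccni* -0.16.

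Of 15 genes that insulin raises for fat synthesis and glycolysis, 9 were higher and 0 were lower, all 9 also past a log2 fold change of 1, and the median was 1.38. Over all tested genes 6.19% were higher, 0.887% passed both thresholds upwards, and the median was 0.02. This list was chosen with the lipogenic changes in these livers known, so its count is not independent evidence. *Me1*, malic enzyme, rose from 221.7 ± 74.9 CPM (SD, n = 6) to 688.5 ± 222.7 CPM (SD, n = 5). *Thrsp* rose from 389.2 ± 173.7 to 1385 ± 433 CPM, *Fasn* by 2.20 and *Elovl6* by 2.72 on the log2 scale. *Mlxipl*, the gene of the carbohydrate-responsive factor ChREBP, had a log2 fold change of -0.30 and did not pass the test.

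**Figure D4:**
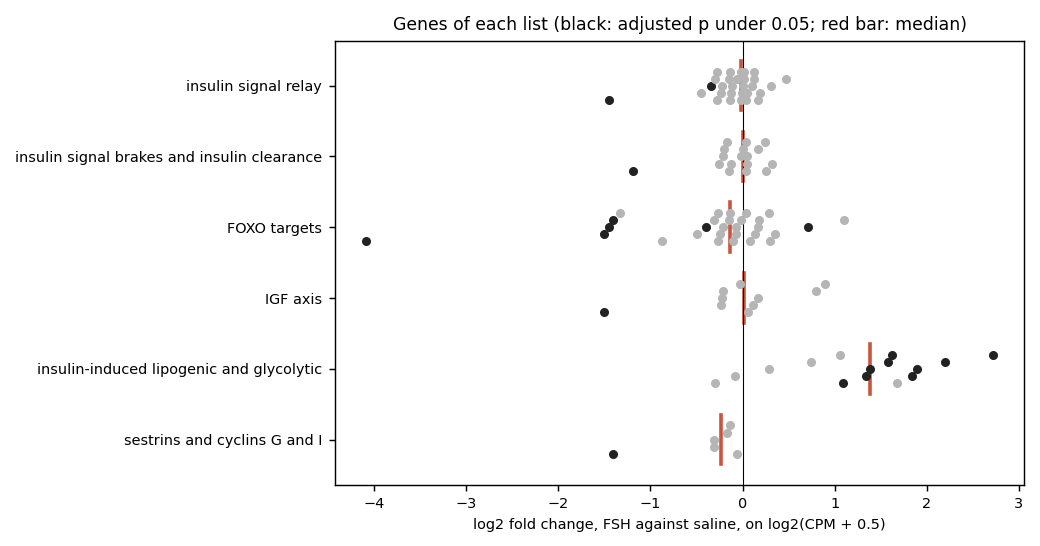
Log2 fold change of FSH against saline for each tested gene of 6 lists (horizontal axis, on log2(CPM + 0.5)), with 1 point per gene, black where the adjusted p is under 0.05, and a red bar at each list's median. The medians of the relay, the brakes, the FOXO targets, the IGF axis and the sestrins and cyclins lie between -0.23 and 0.02, and that of the insulin-induced lipogenic and glycolytic genes lies at 1.38.

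Clock genes differed between the same groups. *Dbp*, an output gene of the circadian clock, had 42.6 to 121.0 CPM with FSH and 3.40 to 4.95 CPM with saline. *Arntl*, which encodes the clock factor BMAL1, had 2.06 to 5.08 CPM with FSH and 13.2 to 22.8 CPM with saline. Neither overlapped, and of 16 tested clock genes 6 were higher and 5 lower, where 6.67% of all tested genes did not overlap, 6.19% were higher and 4.41% lower. The hours of collection are not given in the sources used here, and *Igfbp1*, *Irs2* and *Pck1* are known to vary over the day and with feeding. The part of collection hour and feeding in the lower *Igfbp1*, *Irs2* and *Ccng2* was not tested.

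For each called member, the 3 other genes with the most similar pattern over the 11 livers were found from the mean absolute gap between log2 levels, each centred on its own mean. *Ccng2* had the closest neighbours, *Asap2*, *Dtx4* and *Rnf144a*, with gaps of 0.151, 0.155 and 0.158 where the median over all genes was 0.712. For *Igfbp1* they were *Irf2bp2* (0.322), *Pck1* (0.344) and *Car14* (0.365), with a median of 0.862 over all genes. *Irs2* was nearest to *Rnf125* (0.329), *Phospho1* (0.357) and *Cyp4a10* (0.372), with a median of 0.847. No gene was nearest to more than 1 of the 3. Of these 9 neighbours 8 were called lower with FSH, which the choice by likeness fixes in part, and *Pck1* was the exception.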

How the data were processed

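Liver RNA was sequenced from 5 FSH-treated and 6 saline-treated OVX mice. Per the labels, whole liver was digested with papain and libraries were made with the NEB Next Ultra kit. The submitters' processing notes name FastQC, cutadapt, Trim Galore, STAR, RSEM and the build mm10. Strand handling is not given in the sources used here. The authors deposited CPM values per Ensembl gene, unfiltered and without scaling between libraries. Reads were recovered from them by their smallest step (100% whole within 0.01 reads).

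limma 3.58.1 was run on log2(CPM + 0.5) for genes averaging 0.5 CPM or more (R 4.3.3, eBayes with intensity trend, Benjamini-Hochberg over 12733 genes), since the values are CPM. Fold changes on this scale understate those of low genes. Single genes and 3 ratios were also tested by exact two-sided permutation over 462 splits, and the calls of 7 pathway and 9 marker lists were counted. The 10 members, the lists and the tests were chosen with earlier results of these data known. Named genes are the members, up to 4 called genes per list with the smallest p, the 3 nearest patterns per called member, *Dbp* and *Arntl*. Other genes were named after their values were seen: *Gm9747*, *Cited2*, *G6pc*, *Pik3cb*, *Igf1*, *Igfbp2*, *Igfbp5*, *Igfbp6*, *Ceacam1*, *Mlxipl*, *Sesn1*, *Sesn2*, *Ccng1*, *Ccni*, genes below the level for a test and single markers. Symbols and positions are those of GENCODE M21 (GRCm38), which left 1233 of 36788 identifiers unnamed.

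The fits were tested on simulated data with a single level of spread for all genes (negative binomial dispersion 0.0315). Of true changes of 0.585, 1 and 2 on the log2 scale, 44.8%, 90.9% and 100% were recovered. The wider spread of genes such as *Irs2* was not simulated, so an uncalled member is not shown to be unchanged. No pair of libraries in a group came near sampling noise (lowest mean chi-square per gene 11.5). Same-numbered mice did not deviate together in all pairs (correlations -0.07 to 0.36), so the numbers were not taken as pairs. Alternatives were a replicate block, array weights, no trend, other pseudocounts, filters and scalings, voom and edgeR 4.0.16 on recovered reads, and leaving out each liver. The edgeR fit and the sum of *Irs1* and *Gm9747* (alone and in the ratio) were added after seeing the data.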

Additional observations from a re-analysis of the deposited data

Results flagged for a closer look

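Of 50 groups of values examined for a liver far from the rest of its group, 5 were marked, and chance alone marks about 1 in 20 groups. *Irs2* was at 8.998 CPM in FSH-treated mouse 2, against at most 3.49 CPM in the other 4 FSH livers. Without that liver the log2 fold change of *Irs2* was -1.76. *Foxo1* was at 75.28 CPM in FSH-treated mouse 6, where the next FSH liver had 44.0 CPM, and the same liver stood apart in the log2 ratio of *Foxo1* to *Foxo3* (0.7969, the next at -0.03). *Pik3r1* was at 27.68 CPM in saline-treated mouse 5, the next saline liver having 43.8 CPM. The clock gene *Npas2* was at 0.1005 CPM in FSH-treated mouse 1 and at 0 in the other 4 FSH livers, a level that is below the limit of 3 reads.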

How the results depend on the processing

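*Irs2*, *Igfbp1* and *Ccng2* were called lower in each of the 22 alternatives, with log2 fold changes from -1.76 to -1.17, -1.74 to -1.23 and -1.48 to -1.31 and adjusted p of at most 0.0433, 0.0251 and 0.000257. None of the other 7 members was called in any of them. Without each liver in turn, between 803 (without FSH-treated mouse 1) and 1659 genes of all tested were called, where all livers gave 1350, and the IGF axis had 1 to 3 called genes. The 3 came without saline-treated mouse 2, when *Igfbp5* and *Igfbp6* joined *Igfbp1*. *Foxo3* changed sign between -0.13 and 0.12, its positive values coming without FSH-treated mouse 3, saline-treated mouse 2 or saline-treated mouse 4. The ratio of *Foxo1* to *Foxo3* lay between -0.61 and -0.35, and that of *Igfbp1* to *Igfbp2* between -1.52 and -0.97. The brakes and insulin clearance list had 2 called genes in place of 1 with median-of-ratios scaling, with array weights and with edgeR, the added gene being *Ceacam1*. Over all 22 alternatives the relay had 2 to 3 called genes (3 in 8 of them, the added gene being *Pik3cb*), the FOXO targets 5 to 9 and the lipogenic and glycolytic genes 9 to 11. Summing *Irs1* with *Gm9747* turned its difference to 0.11. The replicate block also left out saline-treated mouse 5, which has no FSH mouse of its number. With it 1210 genes were called and 3 of them were members, where leaving out saline-treated mouse 5 alone gave 1237 called genes. Neither changed a call among the members. Depth limits *Irs2*, *Irs1* and *Sesn3* most, with as few as 23, 57 and 37 reads in a liver.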
